A study of Mus musculus with 2 samples.

Results

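The 7 genes of the NMDA receptor subunits, Grin1, Grin2a, Grin2b, Grin2c, Grin2d, Grin3a and Grin3b, were examined in DNase-seq data of the mouse cortex, as 7 of 21938 protein-coding genes. They were taken by name, each as its GENCODE M21 gene body with 20 kb on either side in mm10. DNase-seq maps DNA that the nuclease DNase I can cut in nuclei, so a peak marks accessible chromatin and gives no RNA level. The tissue was left cerebral cortex of male B6CASTF1/J mice at 14 days, the offspring of a C57BL/6J and a CAST/EiJ parent, with no treatment named in the labels. All samples formed 1 group of 2 replicate libraries, described in the labels as 3 males for replicate 1 and 1 male for replicate 2. The labels number the libraries as biological replicates 1 and 2, yet both carried the same donor identifier. Nothing else says how the tissue was pooled, so it is unclear whether the spread between the libraries is biological or technical. With 2 libraries of 1 group no test between conditions exists, and an exact two-sided sign test over the libraries could not go below p = 0.5. Values are therefore given for each library, with mean ± SD (n = 2) where both had one.

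NMDA receptors are glutamate-gated cation channels of excitatory synapses that open when a co-agonist, glycine or D-serine, is bound as well and depolarization has lifted the magnesium block. Each receptor contains the obligatory subunit GluN1, encoded by Grin1, together with GluN2 subunits (Grin2a to Grin2d) or GluN3 subunits (Grin3a and Grin3b). In the rodent forebrain GluN2B and GluN3A are abundant in early postnatal life and GluN2A increases as synapses mature, whereas GluN2C is best known from cerebellar granule cells, GluN2D from the early brainstem and from interneurons, and GluN3B from motor neurons.

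The promoter of Grin1, the strongest of the family, and the strongest intronic sites of the juvenile and mature subunit genes are described below, and their sequences are shown first. All are written 5′ to 3′ on the strand of the gene, and capitals mark bases that lay in a footprint, a short stretch protected from cleavage, in both libraries. The promoter is the RefSeq entry of GRCm38.p6 (250 bases before and 50 after the start), and the intronic sites are 200 bases centred on the site, read from the same assembly, which is the sequence that mm10 names. RefSeq promoter entries were matched by symbol for 4 members, Grin1, Grin2c, Grin2d and Grin3b.
Grin1 promoter, chr2:25319138-25319437, minus strand: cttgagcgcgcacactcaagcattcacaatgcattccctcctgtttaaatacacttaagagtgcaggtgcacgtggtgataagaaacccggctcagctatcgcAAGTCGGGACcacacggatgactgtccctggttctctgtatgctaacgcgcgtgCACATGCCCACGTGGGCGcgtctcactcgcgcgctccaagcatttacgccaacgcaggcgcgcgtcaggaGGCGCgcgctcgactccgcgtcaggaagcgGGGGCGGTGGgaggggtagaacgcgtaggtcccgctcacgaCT
Grin2b intron 4, chr6:135907641-135907840, minus strand: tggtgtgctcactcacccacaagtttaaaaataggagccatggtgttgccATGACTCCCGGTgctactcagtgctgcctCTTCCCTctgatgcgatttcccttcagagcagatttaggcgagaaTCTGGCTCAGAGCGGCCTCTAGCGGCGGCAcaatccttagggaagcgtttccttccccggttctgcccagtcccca
Grin2b intron 4, chr6:135859561-135859760, minus strand: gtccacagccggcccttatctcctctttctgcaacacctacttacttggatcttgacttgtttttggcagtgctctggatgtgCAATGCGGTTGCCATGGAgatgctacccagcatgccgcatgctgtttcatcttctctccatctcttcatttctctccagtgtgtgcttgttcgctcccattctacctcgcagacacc
Grin2b intron 4, chr6:135899341-135899540, minus strand: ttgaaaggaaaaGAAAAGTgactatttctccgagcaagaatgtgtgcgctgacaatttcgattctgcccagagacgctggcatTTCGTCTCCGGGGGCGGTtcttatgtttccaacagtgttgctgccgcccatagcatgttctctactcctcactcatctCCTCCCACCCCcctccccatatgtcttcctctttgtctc
Grin3a intron 6, chr4:49688761-49688960, minus strand: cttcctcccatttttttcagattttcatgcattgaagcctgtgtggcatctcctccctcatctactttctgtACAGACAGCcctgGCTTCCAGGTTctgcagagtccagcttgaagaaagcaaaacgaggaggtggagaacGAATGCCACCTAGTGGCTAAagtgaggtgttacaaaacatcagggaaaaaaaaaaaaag
Grin2a intron 3, chr16:9801431-9801630, minus strand: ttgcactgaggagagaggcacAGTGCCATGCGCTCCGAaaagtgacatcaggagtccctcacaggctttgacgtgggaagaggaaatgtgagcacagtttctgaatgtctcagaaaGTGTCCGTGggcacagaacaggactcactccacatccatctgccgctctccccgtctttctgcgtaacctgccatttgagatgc

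For 2 members, Grin2c and Grin3b, no peak lay within 1000 bp of any annotated start. Their promoters are shown with CpG dinucleotides in capitals, since their CpG content differs.
Grin2c promoter, chr11:115267194-115267493, minus strand: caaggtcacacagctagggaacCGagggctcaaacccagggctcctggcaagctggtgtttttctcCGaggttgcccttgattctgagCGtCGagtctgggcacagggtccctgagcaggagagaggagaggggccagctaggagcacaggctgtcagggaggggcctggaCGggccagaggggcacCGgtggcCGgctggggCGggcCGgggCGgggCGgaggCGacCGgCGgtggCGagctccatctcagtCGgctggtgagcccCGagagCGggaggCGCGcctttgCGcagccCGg
Grin3b promoter, chr10:79970474-79970773, plus strand: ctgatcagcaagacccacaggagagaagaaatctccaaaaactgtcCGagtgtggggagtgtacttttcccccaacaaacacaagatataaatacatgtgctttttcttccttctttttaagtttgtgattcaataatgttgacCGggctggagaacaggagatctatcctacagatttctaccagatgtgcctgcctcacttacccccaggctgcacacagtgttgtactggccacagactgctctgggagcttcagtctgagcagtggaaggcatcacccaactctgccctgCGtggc

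The authors' peak lists held 150726 peaks in replicate 1 and 155536 in replicate 2, and their footprint lists 380111 and 379156. Sequencing depth is not given in the sources used here. Signals below 1 came in steps of 0.00474 for replicate 1 and 0.00614 for replicate 2, each within 0.05 of a whole step, so the weakest peak of the family, 0.0737 at Grin2a in replicate 2, stood at 12 steps. Of cell type markers, promoter peaks in both libraries were found at 6 of 6 excitatory neuron genes, 4 of 6 inhibitory neuron genes, 5 of 5 astrocyte genes, 4 of 4 oligodendrocyte precursor genes, 3 of 5 microglial genes, 2 of 4 endothelial genes, 2 of 4 cerebellar genes and 0 of 4 hepatocyte genes. Over all protein-coding genes the share was 66.7%, so counts near or below it do not by themselves show a cell type. The cerebellar genes Gabra6 and Barhl1 had none in either library, while Cbln3 had 2.06 and 2.31 and En2 had 0.559 and 0.479. The tissue is a mixture of cell types, and in it a site open in few cells and a site weakly open in many cannot be told apart.

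The obligatory subunit, 3 of the GluN2 subunits and 1 GluN3 subunit had accessible promoters, and Grin2c and Grin3b did not. Both libraries listed a promoter peak, one at most 1000 bp from any annotated start, for 5 of 7 members, beside 66.7% of all protein-coding genes (14628 of 21938). Grin1 had the strongest promoter, and the other open members were lower than the median of all genes with a promoter peak, 3.47 in replicate 1 and 3.91 in replicate 2. The count was 5 in each library alone, with windows of 500 and 2500 bp, with the stricter peak list and with the stronger 50% of peaks. Taking the outermost 5′ end alone gave 4, because Grin2d has its peaks at internal starts.

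**Figure D1:**
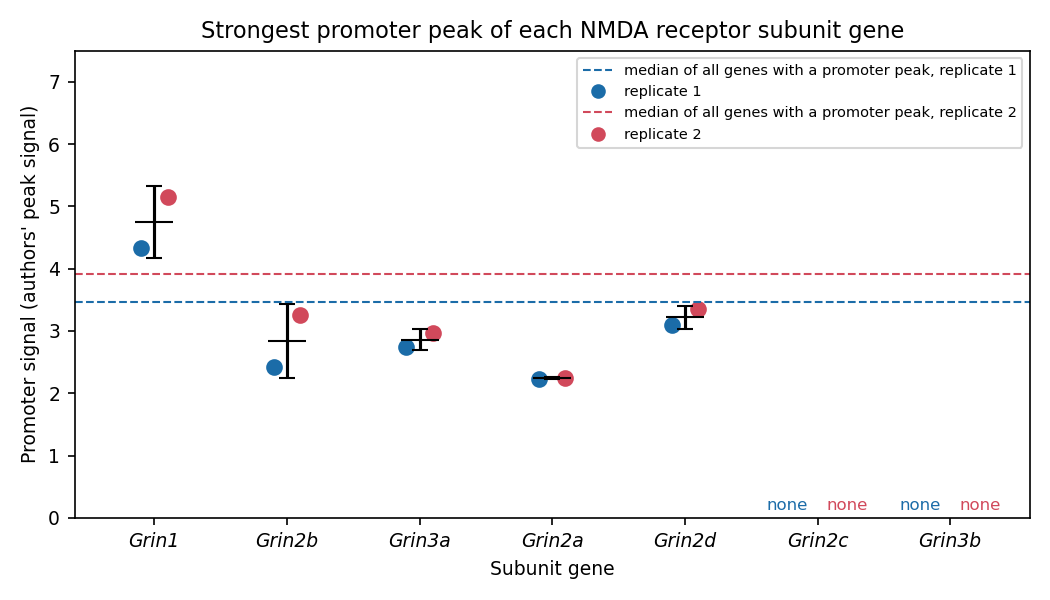
Signal of the strongest promoter peak (vertical axis, the authors' peak signal) of each subunit gene in replicate 1 and replicate 2 (points), with mean ± SD as bars and the median of all genes with a promoter peak as dashed lines. Grin1 lies above both lines in both libraries, Grin2b, Grin3a, Grin2a and Grin2d lie below their library's line, and Grin2c and Grin3b have no promoter peak.

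Grin1, on the minus strand of chromosome 2 (25291181 to 25319187), had a promoter signal of 4.34 in replicate 1 and 5.15 in replicate 2 (4.75 ± 0.577), at percentile 58.9 and 59.9 of genes with a promoter peak. The peak, from 25319081 to 25319340, covered the 5′ end of the gene and held 7 footprints in each library. Weaker peaks lay in intron 1 (0.957 and 0.903) and in exon 7 at an internal start (1.02 and 1.15). All 3 were found in both libraries, and none lay within 1000 bp of a start of another gene.

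In the Grin1 promoter sequence shown above, 33 CpG dinucleotides fell in 300 bases. The GC box, GGGCGG on either strand, which Sp and KLF factors bind, matched once, at 25319174 to 25319179, inside a footprint of both libraries. Here and below a word counts as inside a footprint when it lies within the footprint extended by 5 bp on either side. It overlapped a match to the EGR word (GCGGGGGCG or GCGTGGGCG, either strand) at 25319175 to 25319183, which is GCGGGGGCG on the gene's strand. In the rat gene, overlapping sites for Sp1 and EGR-type factors in this promoter are known from earlier work. Of all 32851 RefSeq promoters of the same length, 35.7% held a GC box and 3.47% the EGR word. The E-box CANNTG matched 4 times, with 2 of these matches, CACGTG and CACATG, in the longest capitalized stretch, and 72.3% of all promoters held one. A match is a description of letters and not a site of binding.

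Grin2d, a GluN2 subunit gene on the minus strand of chromosome 7 (45831883 to 45878378), had 3.09 and 3.35 (3.22 ± 0.188) at a peak from 45866041 to 45866260 in exon 2 of its longest coding transcript, 12.2 kb from the 5′ end of the gene record. A further peak at an internal start had 0.654 and 0.639. No listed peak overlapped the RefSeq promoter entry of Grin2d, 45866632 to 45866931, which held no footprint in either library. With a window of 500 bp the promoter signal was 0.646, and with 2500 bp it was 4.64. The value at 2500 bp comes from a peak that also lies at a start of Kdelr1, a receptor gene of protein retrieval to the endoplasmic reticulum.

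Grin3a, the juvenile GluN3 subunit gene on chromosome 4 (49661611 to 49845744, minus strand), had 2.74 and 2.97 (2.86 ± 0.167) at a peak from 49845701 to 49845960, across its 5′ end. It held 8 footprints in replicate 1 and 7 in replicate 2. Broader, weaker cleavage downstream (49844281 to 49845500) reached 0.601 and 0.657.

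Grin2b, the juvenile GluN2 subunit gene on chromosome 6 (135713233 to 136173511, minus strand), had 2.42 and 3.26 (2.84 ± 0.591) at a peak from 136172161 to 136172460 in replicate 1, 1.2 kb inside the gene. Peaks at 136173121 and 136173581 had 1.44 and 1.68, and 2.08 and 2.03. All 3 also lay within 1000 bp of a start of Gm26653, a non-coding gene, so they cannot be assigned to Grin2b alone.

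Grin2a, the mature GluN2 subunit gene on chromosome 16 (9567898 to 9995560, minus strand), had the lowest promoter signal among the open members, 2.23 and 2.25 (2.24 ± 0.0168), but the most promoter peaks, 7 in each library, or 6 where overlapping peaks are merged. The peak that started at 9993781 had 2.23 and 2.24, and the one over the 5′ end at 9995281 had 1.79 and 2.25. Another, at 9994601, had 1.44 and 1.93. A peak that overlaps the one at the 5′ end was listed as well in each library, with 1.75 in replicate 1 and 2.16 in replicate 2, and the remaining peaks at its starts were below 1. No start of another gene lay within 1000 bp of any of them. Annotated starts numbered 6 at Grin2a, 9 at Grin1, 4 at Grin2b and 3 each at Grin2d and Grin3a. Counts and sums at starts were not adjusted for this.

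Grin2c and Grin3b had no peak within 1000 bp of any start, and no interval with a false discovery rate up to 0.05 reached these windows in either library (0% of bases covered). For Grin2c, on chromosome 11 (115249169 to 115267243, minus strand), the nearest peak was 3338 bp from a start, at 115270581, with 3.50 and 2.73. That site lies inside Fdxr, the gene of a mitochondrial ferredoxin reductase, away from any annotated start. For Grin3b, on chromosome 10 (79970715 to 79977190, plus strand), the nearest peak was 9372 bp away in replicate 1, at a start of Tmem259, and 1240 bp away in replicate 2, with a signal of 0.70. An absent peak says only that cleavage did not pass the authors' threshold in this tissue as a whole.

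The Grin2c promoter had no peak while its sequence was rich in CpG. The 1001 bases around its richest start held 79 CpG dinucleotides and 67.2% G and C, at percentile 76.2 and 86.7 of protein-coding genes. Of the 5223 genes with at least as many CpG dinucleotides, 97.1% had a promoter peak in both libraries. Grin3b had 53 CpG dinucleotides in the 1001 bases around its richest start, which need not be the RefSeq start. Of the 2131 genes within 5 of that number, 92.4% were open. Among the open members the number was 83 at Grin1, 74 at Grin2a, 72 at Grin3a, 42 at Grin2b and 32 at Grin2d, beside a median of 50 over all genes. As in the sequences above, the 300-base RefSeq promoter of Grin2c held 22 CpG dinucleotides and 3 GC boxes, 2 of them sharing a base and none in a footprint, and that of Grin3b held 3 CpG dinucleotides and no GC box.

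The juvenile subunits and the mature subunit differed little at the strongest peak of their promoters, but more in summed signal. The promoter signal of Grin2b over that of Grin2a was 0.12 in replicate 1 and 0.53 in replicate 2 on the log2 scale (0.32 ± 0.29), a ratio of 1.08 and 1.44. Grin3a over Grin2a was 0.30 and 0.40 (0.35 ± 0.07), which exceeded its spread between the libraries. Grin2b over Grin3a was -0.18 and 0.13 (-0.02 ± 0.22), so the order of the juvenile subunits changed between the libraries. When the signals of all promoter peaks were summed, both juvenile genes came out below Grin2a, with -0.54 for Grin2b over Grin2a and -1.15 for Grin3a over Grin2a. Those sums count overlapping peaks more than once. With overlapping peaks merged, the sums were 6.46 and 6.97 at Grin2b, 3.34 and 4.64 at Grin3a and 7.33 and 8.33 at Grin2a, and the mean log2 ratios were -0.22 for Grin2b over Grin2a and -0.99 for Grin3a over Grin2a. With the 5′ end alone Grin2b over Grin2a was 0.03. The contrast depended on whether 1 peak or all peaks of a promoter were taken and on the starts used.

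Along the gene bodies the 3 genes differed in the place and strength of their sites. Grin2b carried its strongest distal sites in 1 intron. Grin2a carried moderate sites over most of its length, and Grin3a carried few (the maps of peaks by distance from the 5′ end show this). Of the distal sites, 17 of 48 at Grin2b, 26 of 54 at Grin2a and 5 of 10 at Grin3a were found in both libraries. The gene windows spanned 500 kb, 224 kb and 468 kb for Grin2b, Grin3a and Grin2a.

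**Figure D2:**
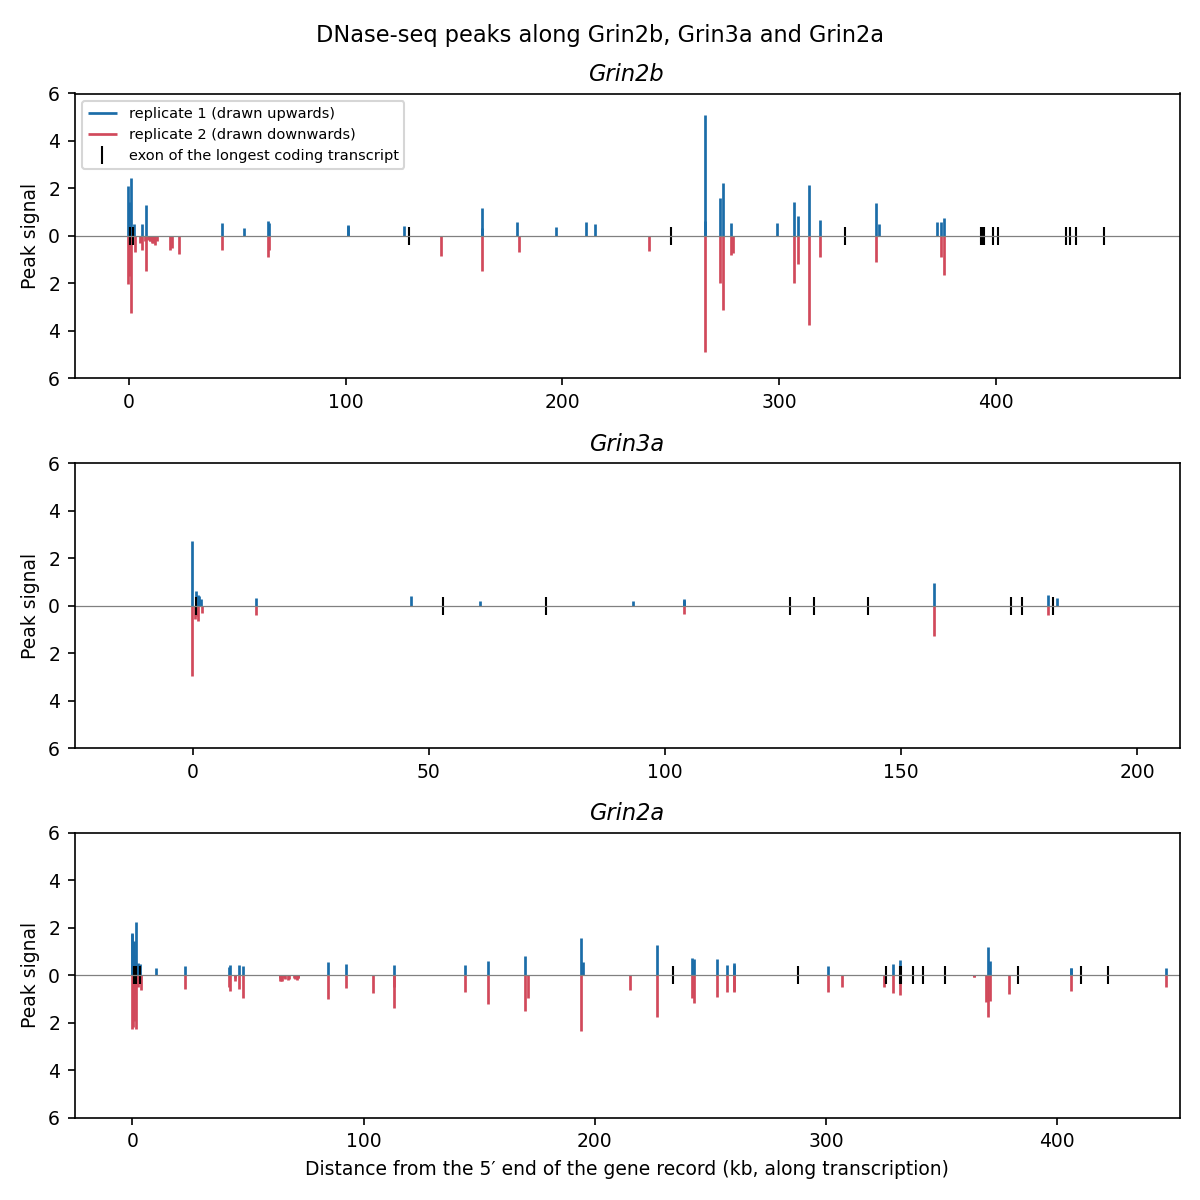
Peak signal (vertical axis, replicate 1 upwards and replicate 2 downwards) by distance from the 5′ end of the gene record in kb along transcription (horizontal axis), for Grin2b, Grin3a and Grin2a, with ticks at the exons of the longest coding transcript. The tallest line of Grin2b stands 266 kb into the gene at 5.09 and 4.91, that of Grin2a away from its starts at 194 kb with 1.57 and 2.32, and that of Grin3a away from its starts at 157 kb with 0.976 and 1.26.

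In Grin2b the strongest accessible site of the whole window was not the promoter but a site in intron 4, at 135907641 to 135907840, 266 kb from the 5′ end. Its signal was 5.09 in replicate 1 and 4.91 in replicate 2 (5.00 ± 0.129), above the gene's own promoter in both libraries. It stood at percentile 99.3 of the 109842 and 115115 distal peaks, those over 1000 bp from any annotated start, in both libraries. The median distal peak had 0.493 and 0.596.

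The next sites of Grin2b lay in the same intron, at 135859561 (2.14 and 3.75) and 135899341 (2.24 and 3.14), followed by 135900481 (1.61 and 2.00) and 135865961 (1.43 and 1.98). Intron 4, 79.7 kb long, held 10 distal sites, of which 8 were found in both libraries. Intron 2, with 127 kb, held 24 sites, 5 of them in both, and intron 3, with 120 kb, held 9 sites and 1 in both. The intron follows exon 4 of the transcript with the longest coding sequence, which has 14 exons.

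In the sequence of the strongest Grin2b site, 49 of 200 bases lay in footprints of both libraries. The RFX factor word GTTGCCA (either strand) matched at 135907790 to 135907796, inside a footprint of 1 library and just before a stretch of capitals that it enters with its last base. A match to the MEF2 word lay outside footprints at 135907807 to 135907816. The site at 135859561 held GTTGCCA too, at 135859664 to 135859670, inside a footprint of both libraries. Of all distal peaks, 5.08% held GTTGCCA and 3.17% the MEF2 word in windows of 200 bases. The site at 135899341 held 2 GC boxes, 1 of them in a footprint of both libraries, beside 7.02% of distal peaks with at least one.

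In Grin2a the strongest distal site was in intron 3, the longest of the gene with 230 kb, at 9801381 to 9801680, with 1.57 and 2.32 (1.95 ± 0.53). It stood at percentile 89.2 and 93.8 of distal peaks. The next were at 9768321 in the same intron (1.26 and 1.76) and at 9625741 in intron 11 (1.19 and 1.75). Of 54 distal sites of the Grin2a window 26 were found in both libraries, 13 of them in intron 3 and 6 of 6 in intron 4. In the 200 bases shown, CAGATG, a form of the E-box that NeuroD factors prefer, matched on the opposite strand at 9801473 to 9801478, in a footprint of 1 library, and 24.6% of distal peaks held this word.

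In Grin3a the strongest distal site was in intron 6, at 49688761 to 49688960, with 0.976 and 1.26 (1.12 ± 0.201), at percentile 79.5 and 81.5. Its other distal sites were below 0.5 in both libraries. Of 10 distal sites 5 were found in both. The intron 6 site held a match to the CTCF word at 49688804 to 49688816, inside a footprint of both libraries, and its bases are part of the last stretch of capitals in the sequence above. CTCF is the architectural protein of chromatin loop anchors. Of all distal peaks, 9.74% held the word.

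The CTCF word also matched at 2 distal sites of Grin1, again within footprints of both libraries. At 25292961 to 25293160, in intron 20, the signal was 1.56 and 1.24, and at 25328581 to 25328740, upstream of the gene and within the neighbouring gene AA543186, it was 0.99 and 1.01. The intron 20 site also lies within Grin1os, a gene that overlaps the 3′ end of Grin1. Among the 18 distal sites named for the family, the 3 strongest of each gene that had any, 4 held the word and 3 of these held it in a footprint of both libraries. Beside this stands the 9.74% of all distal peaks given above. Over all footprints of the windows the word was in 2.22% in replicate 1 and 1.02% in replicate 2, beside 2.99% and 2.74% of all footprints. The named sites were ranked by signal, so their count is a description.
Grin1 intron 20, chr2:25292961-25293160, minus strand, capitals as above: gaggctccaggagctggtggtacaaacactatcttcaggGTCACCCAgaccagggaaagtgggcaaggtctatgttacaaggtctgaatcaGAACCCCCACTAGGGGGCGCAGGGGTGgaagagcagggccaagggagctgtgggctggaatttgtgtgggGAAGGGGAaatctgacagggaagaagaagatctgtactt

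Around the short genes many peaks lay at starts of neighbours. Starts of other genes held 8 of 15 peaks of replicate 1 and 7 of 14 of replicate 2 in the Grin1 window. In the Grin2d window they held 9 of 12 and 9 of 11, in the Grin3b window 6 of 10 and 8 of 12, and in the Grin2c window 1 of 8 and 1 of 10. Grin2d had no distal peak in either library. The strongest distal peak in the Grin3b window, at 79987101, had 2.82 and 2.27, and that in the Grin2c window is the site in Fdxr named above. Without a flank, no peak lay in the body of Grin2c or of Grin3b in either library.

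Peak density was higher in the windows of the short genes, including that of Grin2c, where few peaks lay at starts of neighbours. Grin3b had 21.5 and 25.8 peaks per 100 kb of window in replicates 1 and 2, Grin1 22.1 and 20.6, Grin2c 13.8 and 17.2, and Grin2d 13.9 and 12.7. The long genes were lower, with 6.80 and 7.80 at Grin2b, 6.69 and 4.02 at Grin3a, and 7.70 and 12.4 at Grin2a. The median over all genes was 8.75 and 8.84. Intervals with a false discovery rate up to 0.05 covered 9.86% ± 0.099 of the Grin3b window and 6.46% ± 1.51 of the Grin1 window, but 1.74% ± 0.297 at Grin2b, 1.54% ± 0.346 at Grin3a and 2.52% ± 0.827 at Grin2a, with medians over all genes of 2.84% and 2.71%. Among the 241 genes with a window within 20% of its own length, Grin2b stood at percentile 65.6 and 72.2, and among 266 such genes Grin2a stood at 71.1 and 96.6. Grin3a stood at 43.9 and 14.4 of 800. By the same measure Grin1 stood at 93.7 and 91.9, and Grin3b at 88 and 93.3. Grin2c stood at 68.2 and 81.3, and Grin2d at 79.7 and 72.6. The median density of genes of like window length was 8.88 to 10.1 for the short members. For the long members it was 5.49 to 7.35, so density also differed with window length in general.

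**Figure D3:**
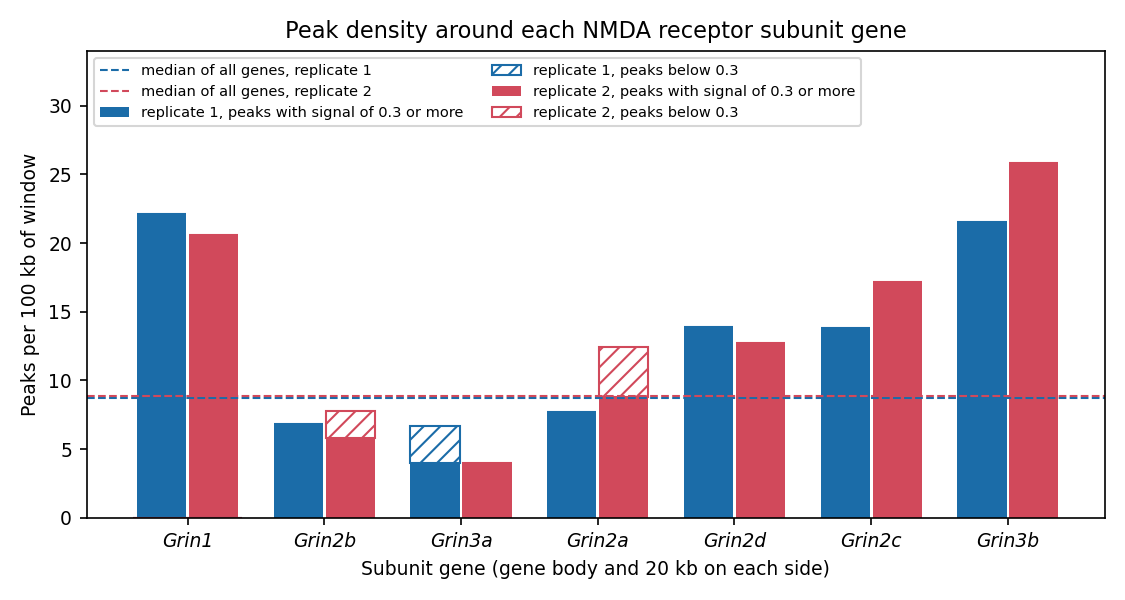
Peaks per 100 kb of window (vertical axis) for each subunit gene in replicate 1 and replicate 2 (bars), split at a signal of 0.3 (hatched below it), with the median of all genes as dashed lines. Peaks below 0.3 were listed at Grin2b and Grin2a in replicate 2 alone and at Grin3a in replicate 1 alone.

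The juvenile and mature genes could not be ordered by density beyond the spread between libraries in every case. Grin2b over Grin2a was -0.18 and -0.67 on the log2 scale (-0.42 ± 0.35), Grin2b over Grin3a 0.02 and 0.96 (0.49 ± 0.66), and Grin3a over Grin2a -0.20 and -1.63 (-0.91 ± 1.01). The signs were alike in both libraries, and the last 2 means were smaller than their SD. With peaks of at least 0.71 only, the highest of the members' lowest listed signals and a floor chosen after the values were seen, Grin2b over Grin2a was -0.0395 and Grin2b over Grin3a 1.85.

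Part of the difference between the libraries, above all at Grin2a, lay in runs of weak peaks that were listed in 1 library. In intron 3 of Grin2a, 13 peaks with signals of 0.0921 to 0.227 lay within 8.37 kb (9923728 to 9932100) in replicate 2, where replicate 1 had 0 peaks. Intervals with a false discovery rate up to 0.05 covered 37.6% of that stretch in replicate 2 and 0% in replicate 1. The false discovery rates of these peaks were between 1.82e-11 and 0.00397, and 11 of the 13 were in the stricter list. In intron 2 of Grin2b, 10 peaks of 0.166 to 0.289 lay within 7.91 kb (136160566 to 136168478) of replicate 2, with coverage of 39.9% in replicate 2 and 4.11% in replicate 1. Their false discovery rates were between 0.000135 and 0.0409, and 2 of the 10 were in the stricter list. Such low signals passed in these stretches while the lowest listed peak of the Grin1 window had 0.535 and 0.645, so the floor of the peak lists differed between regions.

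Below 0.3, a limit set after these runs were seen, Grin2a had 17 peaks in replicate 2 and 0 in replicate 1, Grin2b 10 and 0, and Grin3a 0 and 6. Over the genome 11.6% of the peaks of replicate 2 and 16.1% of those of replicate 1 were below it. Without them Grin2a had 41 peaks in replicate 2 and 36 in replicate 1, Grin2b 29 and 34, and Grin3a 9 and 9. At Grin2b, where all peaks numbered 39 in replicate 2 and 34 in replicate 1, the order of the libraries reversed.

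Most of the members' peaks were found in both libraries. Of 130 peaks in replicate 1, 102 shared 1 bp or more with one of replicate 2 (78.5%, 95% interval by Wilson's method 70.6 to 84.7), beside 78.7% of all peaks. Of 153 in replicate 2, 102 did so (66.7%, 58.9 to 73.6), beside 76.3%. The mean share was 72.6% ± 8.34, and intervals cover counting error only. Without the peaks below 0.3 the shares were 79.8% and 81.0%, beside 85.6% and 81.8% of all such peaks. Of the members, Grin2b had the lowest share in each library, 58.8% in replicate 1 and 51.3% in replicate 2. Without its peaks below 0.3 it had 58.8% and 69.0%.

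At peaks found in both libraries, Grin2a was shifted towards replicate 2 away from its promoter. The median log2 signal of replicate 2 over replicate 1 was 0.57 over the 32 shared peaks of Grin2a, beside 0.25 over 118593 shared peaks of the genome (SD 0.43 over peaks). Among 8529 genes with at least 7 shared peaks in the window, that median stood at percentile 97.5. At the 26 distal peaks of Grin2a it was 0.63, with all 26 above 0 and 25 above the median of 0.28 for all distal peaks. At 6 peaks by its own starts, 2 of which overlap each other, it was 0.17, beside 0.21 for all peaks near a start.

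The other members lay closer to the genome. The same median was 0.36 at Grin2b and Grin2c, 0.34 at Grin3a, 0.18 at Grin1, 0.06 at Grin2d and -0.003 at Grin3b, from percentile 8.24 for Grin3b to 76.6 for Grin2c. Peaks of 1 gene are not replicates, and the labels give no condition that separates the libraries, so no test was made.

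**Figure D4:**
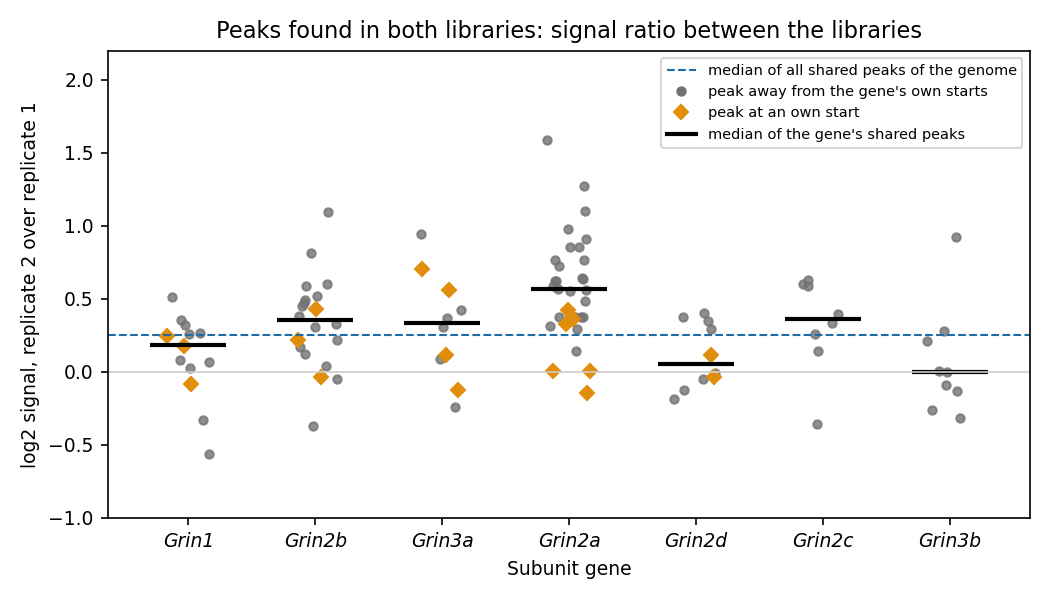
Log2 signal of replicate 2 over replicate 1 (vertical axis) at each peak found in both libraries, by subunit gene, with diamonds for peaks at the gene's own starts, circles for other peaks, a bar at each gene's median and a dashed line at the genome's median of 0.25. The circles of Grin2a lie highest as a group, up to 1.59, while its diamonds lie between -0.145 and 0.427.

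Promoters of excitatory neuron markers moved the same way between the libraries. Their summed signal was 17.0 in replicate 2 and 13.3 in replicate 1 over 6 genes, none of them at 0 and 2 of them, Neurod2 and Tbr1, also among the factors described below, with a median log2 ratio of 0.66, beside 0.22 for all open promoters. Inhibitory neuron markers had 3.95 and 4.67 over 6 genes (median -0.27 over the 4 open in both, Sst at 0 in both libraries and Vip in replicate 1), astrocyte markers 4.49 and 5.12 over 5 genes (-0.03), and oligodendrocyte precursor markers 6.97 and 5.97 over 4 genes (0.33). Microglial markers had 3.46 and 2.06 over 5 genes (0.06 over the 3 open in both, with P2ry12 and Aif1 at 0 in replicate 1), and endothelial markers 0.867 and 0.938 over 4 genes (-0.13 over 2, with Cldn5 and Emcn at 0 in both). The part of cell composition in the Grin2a values was not tested.

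Most peaks of the family held footprints. At least 1 footprint lay in 84.6% of the members' peaks in replicate 1 and in 81.0% in replicate 2, beside 83.7% and 83.2% of all peaks. The windows held 360 and 393 footprints, of which 58.3% and 53.4% overlapped one of the other library, beside 55% of all footprints in each. Within 1000 bp of their own starts Grin2a had 27 and 25 footprints, Grin2b 15 and 18, Grin1 13 and 13, Grin3a 9 and 7, Grin2d 8 and 5, and Grin2c and Grin3b 0.

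Words were counted in footprints extended by 5 bp, for 16 motifs. The GC box GGGCGG was found in 9.44% and 8.40% of the members' footprints, beside 5.98% and 5.90% of all. Of the 34 and 33 such footprints, 10 and 10 were in the Grin3b window and 9 and 8 in the Grin2d window, none of them at a start of Grin3b or Grin2d. At their own starts Grin2a had 4 and 4, Grin2b 3 and 3, and Grin1 1 and 1. NRF1 is a transcription factor of many housekeeping promoters. Its core word GCATGCGC was in 7 and 5 footprints (1.94% and 1.27%, beside 0.329% and 0.326% of all). These were 3 and 3 in the Grin3b window, 2 and 2 in the Grin2d window, and, in replicate 1 alone, 1 each at starts of Grin1 and Grin2b. E-boxes CANNTG were in 13.3% and 10.9%, beside 11.9% and 12.7%. No footprint of the family held the CRE TGACGTCA or the RE1 word of the repressor REST in either library, words present in 0.22% and 0.24%, and in 0.015% and 0.0105%, of all footprints.

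The genes that work with the receptor were nearly all open. Over 5 lists, 53 of 55 genes had a promoter peak in both libraries (96.4%, beside 66.7% of all protein-coding genes). All 11 other ionotropic glutamate receptor genes were open, with a median promoter signal of 1.75. Among them the AMPA receptor gene Gria2 was highest (5.00 ± 0.831), with the kainate receptor gene Grik4 next (3.50 ± 0.188), and Gria3 (0.817 ± 0.0435) and Grik1 (1.06 ± 0.0157) were lowest. The 5 open NMDA receptor genes, from 2.24 to 4.75, had 2.86 as their middle value.

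All 12 scaffold and anchor genes were open, with a median of 3.59. The postsynaptic scaffold genes Dlg2 (9.61 ± 2.21) and Homer1 (8.52 ± 1.99) were highest, and Neto1 (1.56 ± 0.286) and Dlg1 (1.91 ± 0.264) were lowest. All 14 kinase, phosphatase and calcium signalling genes were open, with a median of 4.29, from the kinase gene Cdk5 (12.7 ± 4.10) and the calcineurin subunit gene Ppp3ca (11.9 ± 1.21) to Rasgrf2 (1.39 ± 0.224) and the nitric oxide synthase gene Nos1 (0.812 ± 0.137).

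Of the 5 lists only the co-agonist genes were not all open, with 5 of 7 (71.4%), near the 66.7% of all protein-coding genes. Srr, whose enzyme makes D-serine, had 6.47 ± 1.32 and the neutral amino acid transporter gene Slc1a4 had 5.97 ± 1.32. The glycine transporter gene Slc6a9 (2.92 ± 0.312) and the transporter gene Slc7a10 (0.717 ± 0.150) were the lowest of those open. Dao, whose enzyme degrades D-serine, had no promoter peak in either library, and the glycine transporter gene Slc6a5 had 0.398 in replicate 1 and none in replicate 2. All 11 genes of factors reported to act on subunit genes were open, with a median of 5.45, from Sp1 (13.5 ± 5.61) and Creb1 (11.3 ± 0.701) to Tbr1 (1.76 ± 0.372) and Rest (0.870 ± 0.102). Peaks shared with a neighbouring start count in these values.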

How the data were processed

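DNase-seq was measured in 1 group of 2 libraries. The deposited peak signal, a value per peak that the authors gave in each library's own list, was used as deposited, and the larger of the 2 lists was the main one. The deposited intervals carry a q-value, the false discovery rate of local cleavage, which the authors listed up to 0.05, and the footprint files' p-value column was constant, so only footprint positions were used. The deposited notes derive each file from alignments of 1 library to mm10. Not given in the sources used here: aligner, peak and footprint callers, depth, and the treatment of CAST/EiJ reads.

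Gene models were GENCODE M21 on 21 chromosomes. Promoter peaks were those up to 1000 bp from an annotated start, the strongest giving the promoter signal, windows had 20 kb flanks, peaks were placed by their centre, and sharing needed 1 bp. Values of 1 marker list are not reported here. Motif words were matched on both strands. Distal sites are named by the 3 highest mean signals per gene among those in both libraries, and list genes by the 2 highest, the 2 lowest and any without a promoter peak. The members and lists were chosen with earlier results of these data known. Alternatives were the flank, promoter window, starts, summed signal, percentiles, peak list and strength, overlap, false discovery rate, footprint extension and each library alone. Sharing, promoter and word functions were tested on simulated data. Python 3.11.15, NumPy 2.4.6, pandas 2.3.3 and SciPy 1.17.1 were used.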

Additional observations from a re-analysis of the deposited data

How the results depend on the processing

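Of 234 recomputed values, 165 stayed within the spread between the libraries or within 1.5 times the count. Where that spread was the limit, leaving out 1 of the 2 libraries could not count as moved. With 2 libraries each value lies closer to their mean than the SD, so the tally is no measure of robustness there. The moved ones include window counts with other flanks or the stricter list and the summed promoter signals. Sign changed for 7 alternatives of the promoter contrasts (log2). The summed signal gave -0.54 for Grin2b over Grin2a, -1.15 for Grin3a over Grin2a and 0.61 for Grin2b over Grin3a, and with overlapping peaks merged, chosen after seeing the data, -0.22, -0.99 and 0.77 for the same contrasts. Grin2b over Grin3a was 0.13 without replicate 1 and -0.18 without replicate 2. It moved to -0.47 with the 5′ end only, where Grin2b over Grin2a was 0.03. Grin3a over Grin2a moved to 0.51 with the 5′ end only and to 0.26 with percentiles. For density, the stronger 50% of peaks gave 2.01 for Grin2b over Grin3a and -2.12 for Grin3a over Grin2a. A floor of 0.71, chosen after seeing the data, gave -0.0395 for Grin2b over Grin2a and 1.85 for Grin2b over Grin3a; leaving out peaks below 0.3 gave -0.39, 0.64 and -1.03 for Grin2b over Grin2a, Grin2b over Grin3a and Grin3a over Grin2a. No paired analysis was possible because there is 1 group. The libraries' depth is unknown, and the hybrid's reads were placed on mm10, so allelic differences in mapping were not tested.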
